A study of Mus musculus with 4 samples.

Results

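Iron and heme handling was followed through 10 genes in myeloid cells sorted from mouse liver. The genes were the metalloreductases Steap3 and Steap4, the transferrin receptor gene Tfrc, the phagosomal metal transporter gene Slc11a1, the ferritin genes Ftl1 and Fth1, the iron exporter gene Slc40a1, the heme transporter gene Slc48a1, and the heme-breakdown genes Hmox1 and Blvrb. They were taken as listed rows of a count table of 55487 Ensembl genes, and all 10 were found there and passed the filter on low counts. Of these, 9 were listed for their function, with earlier results of these data known. Steap4 was selected on its measured counts, because they were much higher in fl/fl, so its genotype values are given as a description and were not tested. The groups were LysM-Cre IL10R fl/fl (n = 2 libraries) and LysM-Cre IL10R wt/wt (n = 2 libraries), so that both carried LysM-Cre and differed in whether the receptor gene for interleukin-10 (IL-10) was floxed (fl), that is, flanked by sites that Cre cuts. In LysM-Cre mice the recombinase is made from the lysozyme 2 locus in macrophages, monocytes and granulocytes, and other cells of the mouse keep the floxed gene. The sorted cells bore CD45 and CD11b and lacked CD3 and CD11c, and their poly(A) RNA was sequenced. The labels give no age, sex or tumour status, and do not say if separate animals gave the libraries within a genotype, so the p-values measure the spread between these samples.

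Macrophages recover iron from engulfed red cells. Heme leaves the phagolysosome through the transporter encoded by Slc48a1, heme oxygenase 1 opens its ring and frees the iron, and biliverdin reductases act on the product. Iron is then stored in ferritin shells built of heavy and light chains, or leaves the cell through ferroportin, the product of Slc40a1. STEAP proteins reduce ferric iron and cupric copper, a step that lets divalent metal transporters carry iron across a membrane. Neutrophils and macrophages also withhold iron from microbes, through the phagosomal pump encoded by Slc11a1 and through secreted proteins that bind siderophores and heme proteins.

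Total counts were 17750343 and 17154042 in fl/fl 1 and 2, and 22694136 and 26441014 in wt/wt 1 and 2. Il10ra, the gene of the ligand-binding receptor chain, was lower in fl/fl, at 69.3 and 14.8 CPM in fl/fl against 1111 and 993 CPM in wt/wt (CPM are counts scaled to a common sequencing depth with TMM factors; the labels write IL10R without naming a chain). Lyz2, whose locus carries Cre, was low throughout, at 26.4 and 80.4 CPM in fl/fl against 18.4 and 23.3 CPM in wt/wt. Xist, which is transcribed from an inactive X chromosome, was counted 4298 times in fl/fl 2 but not in fl/fl 1 or in wt/wt, so fl/fl libraries differed in sex; Xist and Lyz2 were named with their values known. The monocyte genes Ccr2 and Ly6c2 were abundant, at 1304 and 1567 CPM for Ccr2 in fl/fl against 1640 and 1723 CPM in wt/wt, and at 1354 and 956 CPM for Ly6c2 in fl/fl against 869 and 802 CPM in wt/wt, and the T cell gene Cd3e reached at most 0.0737 CPM. Over all tested genes, 2.69% were called higher and 3.16% lower in fl/fl, which is the background for the marker counts that follow. Markers of neutrophils were higher in fl/fl and differed between its libraries: 12 of 18 rose, and summed they reached 43120 CPM in fl/fl 1 and 19130 CPM in fl/fl 2, against 3946 CPM in wt/wt 1 and 4844 CPM in wt/wt 2. Among 12 tested granulocyte precursor markers 9 rose, with sums of 3132 and 1548 CPM in fl/fl against 2419 and 2001 CPM in wt/wt, of which Srgn, which did not pass, gave 1406 and 978 CPM in fl/fl and 2354 and 1946 CPM in wt/wt. Of 9 tested Kupffer cell markers, 3 fell, which were the complement genes C1qa, C1qb and C1qc. The sum over the 16 listed genes was 292 and 313 CPM in fl/fl against 907 and 847 CPM in wt/wt, a difference carried by these 3 genes. C1qb alone held 70.5 and 24.4 CPM in fl/fl against 342 and 332 CPM in wt/wt. The other 6 tested genes did not pass, and Id3 overlapped at 142 and 254 CPM in fl/fl against 169 and 125 CPM in wt/wt. The Kupffer-defining genes Clec4f, Vsig4 and Timd4 were at or near 0 in every library, with a highest level of 0.873 CPM. Of 6 tested erythroid markers, 1 fell, which was Ermap, and 5 did not pass. Among these 5, the 4 hemoglobin genes were above in both fl/fl libraries. Hba-a1 was at 15.4 and 41.5 CPM in fl/fl against 7.01 and 8.62 CPM in wt/wt, and Hbb-bs at 18.4 and 45.0 CPM in fl/fl against 12.2 and 9.76 CPM in wt/wt. Slc4a1, Car1 and Rhag had no counts, and the erythroid sums were 38.3 and 96.1 CPM in fl/fl against 30.05 and 29.4 CPM in wt/wt. In bulk RNA of this kind, fewer cells of a type and less RNA per cell cannot be told apart, and the part of these marker levels in the differences of the members was not tested.

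Short sequences of 5 members are given here because they carry elements that are known to control, or may bear on, their expression. The mRNAs of ferritin, ferroportin and the transferrin receptor carry iron-responsive elements, hairpins that the iron regulatory proteins bind when iron is scarce. In a 5′ UTR the bound protein blocks translation, and in the 3′ UTR of Tfrc it protects the mRNA from decay, so the levels below measure mRNA and not the protein output of Fth1, Ftl1 and Slc40a1. GENCODE transcripts (GRCm38) were searched for a bulged C, 5 paired bases (G-T pairs allowed) and the loop CAGTGH, where H is A, C or T. The search found the element in the 5′ UTR of Fth1 (chr19:9982732-9982760, plus strand), Ftl1 (chr7:45459779-45459807, minus strand) and Slc40a1 (chr1:45925465-45925493, minus strand). It found 4 copies in the 3′ UTR of Tfrc (plus strand, chr16:32631219-32631247, chr16:32631598-32631626, chr16:32631663-32631691 and chr16:32631710-32631738). Elsewhere it is rare: 0.112% of 20597 genes hold it in a 5′ UTR and 0.477% of 20979 genes in a 3′ UTR. The sites are shown as DNA, 5′ to 3′, with the loop in capitals.
Fth1: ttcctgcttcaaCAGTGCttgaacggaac
Ftl1: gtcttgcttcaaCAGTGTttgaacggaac
Slc40a1: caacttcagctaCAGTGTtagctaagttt
Tfrc site 1: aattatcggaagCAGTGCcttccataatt
Tfrc site 2: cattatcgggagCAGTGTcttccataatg
Tfrc site 3: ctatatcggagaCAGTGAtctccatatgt
Tfrc site 4: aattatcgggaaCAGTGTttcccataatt

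IL-10 signals through the transcription factor STAT3, so a STAT motif was among those searched. The stretch upstream of Steap4 is shown because this gene was selected for its rise in fl/fl. Bases −150 to −51 from its RefSeq start site (GRCm38.p6, chr5:7960322-7960421, plus strand) hold a match to the STAT motif TTCNNNGAA at base −116 and a match to the C/EBP motif TTGCNNAA at base −87, both in capitals.
Steap4 upstream: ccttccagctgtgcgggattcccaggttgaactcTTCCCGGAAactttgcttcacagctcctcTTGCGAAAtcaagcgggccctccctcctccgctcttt
Promoter windows of 300 bases, 250 before the start site to 50 after, were matched for 7 of the 10 genes and searched on both strands. The STAT motif was in 1 of these 7 genes, against 8.33% of 32544 promoters of the same length. C/EBP matches were found in 3 of the 7 (Steap4, Steap3 and Fth1; 10.8% of all promoters) and the hypoxia motif ACGTG in 2 of the 7 (Tfrc and Blvrb; 19.7%). The antioxidant response element TGACNNNGC was in none of the 7 windows, against 12.4% of all promoters. Steap3, Fth1, Tfrc and Blvrb have more than 1 listed start site, which gives a motif more chances to occur. A match describes the letters only and does not show binding, and the part of any match in the genotype differences was not tested.

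The comparison of fl/fl with wt/wt asks which of these genes differ in liver myeloid cells where the floxed receptor gene is exposed to LysM-Cre. The 9 genes other than Steap4 were listed with earlier results of these data known. Among them, Hmox1 and Slc11a1 fell in fl/fl, none rose, and 7 did not pass the edgeR quasi-likelihood test at an adjusted p under 0.05. In the whole table, 5.85% of 13496 tested genes passed, 2.69% higher and 3.16% lower in fl/fl; as the same contrast chose Steap4, these shares are background only. The libraries of the 2 genotypes did not overlap for 6 of the 9 genes, with Slc40a1 above and Hmox1, Slc11a1, Fth1, Tfrc and Blvrb below in fl/fl, against 54.4% of all tested genes, 28.1% above and 26.3% below. The median log2 fold change of the 9 genes was −0.43, beside 0.02 over all tested genes. The calls of Hmox1 and Slc11a1 were lost when either wt/wt library was left out of the edgeR fit, in which no gene of the whole table passed (1576 genes at an unadjusted p under 0.05 without wt/wt 1 and 2333 without wt/wt 2), while DESeq2 without wt/wt 1 called 496 genes, neither of them included, and without wt/wt 2 called 784 genes, Slc11a1 included (adjusted p = 0.0497). Fits that lack a library assume that the lone library of a genotype varies like the other pair. Without fl/fl 1, the only fl/fl library has Xist counts and the wt/wt libraries have none, so genotype and sex cannot be told apart. With 2 libraries against 2, an exact permutation test of a single value cannot give a p below 0.333.

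**Figure D1:**
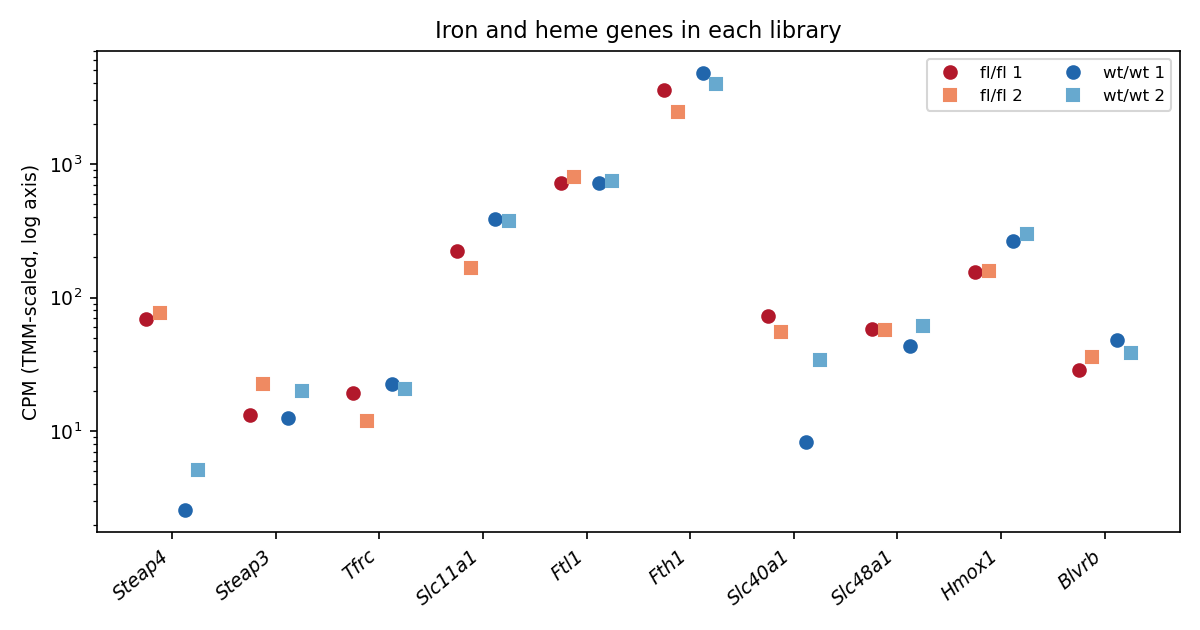
Level of each of the 10 genes in each library, as TMM-scaled CPM on a log axis; circles and squares are libraries 1 and 2 of fl/fl (reds) and wt/wt (blues). Steap4 stands at 69.5 and 76.6 CPM in fl/fl against 2.56 and 5.16 CPM in wt/wt, Hmox1 and Slc11a1 lie lower in fl/fl, and the Ftl1 and Steap3 libraries overlap.

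Of the STEAP reductases, Steap4 was far higher in fl/fl and Steap3 overlapped between the genotypes. Steap4 (ENSMUSG00000012428; GRCm38 chromosome 5, 7960457 to 7982213, plus strand), a metalloreductase of the plasma membrane and endosomes, had 1193 and 1343 counts in fl/fl 1 and 2 and 57 and 140 counts in wt/wt 1 and 2. That is 69.5 and 76.6 CPM in fl/fl against 2.56 and 5.16 CPM in wt/wt, with means of 73.1 ± 5.07 CPM in fl/fl and 3.86 ± 1.84 CPM in wt/wt (SD, n = 2 each) and a log2 fold change of 4.23 ± 0.34 (SE). Both fl/fl libraries were high and close to each other, and both wt/wt libraries were low. Leaving out single libraries moved the log2 fold change of Steap4 between 3.78 and 4.83. Steap3 (ENSMUSG00000026389; chromosome 1, 120190757 to 120272705, minus strand), the reductase that acts on transferrin-bound iron in endosomes of erythroid precursors, held 13.1 and 22.7 CPM in fl/fl against 12.6 and 19.9 CPM in wt/wt. Library 2 was the higher one in each genotype and the groups overlapped (log2 fold change 0.14 ± 0.34, SE; adjusted p = 0.871, edgeR). Per kilobase of exon (RPKM), Steap4 made up 90.6% and 85.9% of the summed Steap3 and Steap4 level in the fl/fl libraries, and 26.9% and 31.9% of it in the wt/wt libraries. In wt/wt Steap4 was the lowest of the 10 genes by mean RPKM, at 1.22, and in fl/fl it was at rank 5 of 10, at 23.2 RPKM. The family members Steap1 and Steap2, named with their values known, were at 0 counts in both fl/fl libraries and in wt/wt 2, and at 6 and 15 counts in wt/wt 1, and did not pass the filter. The limit that 0 counts set is taken as 3 counts, or 0.175 CPM in fl/fl 1 and 0.171 CPM in fl/fl 2.

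**Figure D2:**
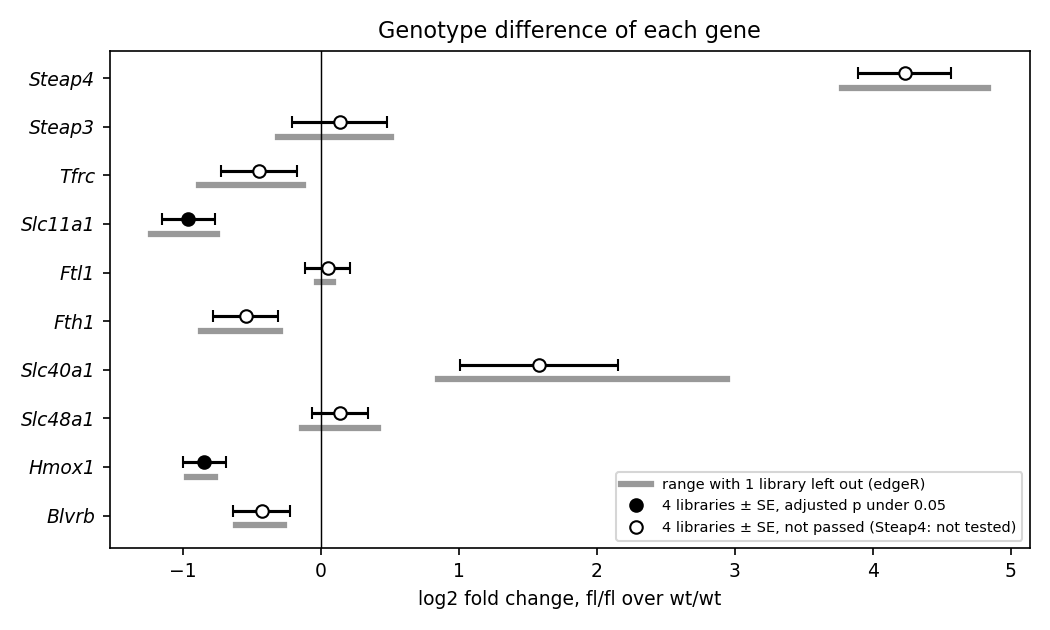
Log2 fold change of fl/fl over wt/wt for each gene, with black circles and bars for the edgeR value ± SE over 4 libraries (filled: adjusted p under 0.05; open: not passed, or not tested for Steap4) and grey bars for the range when single libraries were left out. Steap4 lies at 4.23, Hmox1 and Slc11a1 at −0.85 and −0.96, and the widest grey bar, 0.85 to 2.95, belongs to Slc40a1.

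Neutrophil markers were higher in fl/fl beside Steap4. Between the fl/fl libraries, 17 of the 18 markers had their higher level in fl/fl 1, among them Ly6g at 108 CPM in fl/fl 1 and 48.7 CPM in fl/fl 2, and Camp at 2250 CPM in fl/fl 1 and 1756 CPM in fl/fl 2. The other, Csf3r, was at 857 CPM in fl/fl 1 and 1058 CPM in fl/fl 2. The part of neutrophil content in the Steap4 difference was not tested.

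Among the iron uptake and phagosome genes, Slc11a1 fell. Slc11a1 (ENSMUSG00000026177; chromosome 1, 74375195 to 74386062, plus strand), known as NRAMP1, moves iron and manganese out of the phagosome, and its loss of function makes mice susceptible to intracellular bacteria. It held 225 and 167 CPM in fl/fl against 389 and 373 CPM in wt/wt, with both fl/fl libraries below both wt/wt libraries. Slc11a1 averaged 196 ± 40.7 CPM in fl/fl and 381 ± 11.1 CPM in wt/wt (SD, n = 2 each), a log2 fold change of −0.96 ± 0.19 (SE; adjusted p = 0.0381, edgeR). Leaving out wt/wt 1 gave an adjusted p of 0.241, and leaving out wt/wt 2 one of 0.154 (edgeR). Tfrc (ENSMUSG00000022797; chromosome 16, 32608920 to 32632794, plus strand), which takes up transferrin-bound iron and is abundant in dividing cells, held 19.4 and 11.9 CPM in fl/fl against 22.4 and 20.5 CPM in wt/wt. The Tfrc libraries did not overlap, but fl/fl 1 lay close to wt/wt 2 and the difference did not pass (log2 fold change −0.45 ± 0.28, SE; adjusted p = 0.398, edgeR). Leaving out fl/fl 1, where genotype and sex cannot be told apart, moved the Tfrc log2 fold change to −0.88, and leaving out fl/fl 2 to −0.13. Of 18 cell cycle genes, 11 rose in fl/fl, where 2.69% of all tested genes were higher. Their summed levels were 1416 and 606 CPM in fl/fl against 382 and 278 CPM in wt/wt. The part of cell division in the Tfrc values was not tested.

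Ferritin mRNA was the most abundant of the group, with both chains together at 0.412% and 0.332% of all counts in the fl/fl libraries and 0.543% and 0.480% of them in the wt/wt libraries. Fth1 (ENSMUSG00000024661; chromosome 19, 9980598 to 9985098, plus strand), the heavy chain that oxidises iron on entry, held 3544 and 2453 CPM in fl/fl against 4815 and 3935 CPM in wt/wt. Both fl/fl libraries lay below both wt/wt libraries, without passing (log2 fold change −0.55 ± 0.23, SE; adjusted p = 0.232, edgeR). Without fl/fl 1, where genotype and sex cannot be told apart, the Fth1 log2 fold change was −0.87, and without fl/fl 2 it was −0.30. Ftl1 (ENSMUSG00000050708; chromosome 7, 45457944 to 45459884, minus strand), the light chain that helps to form the iron core, held 716 and 798 CPM in fl/fl against 720 and 744 CPM in wt/wt, with the wt/wt libraries inside the fl/fl range (log2 fold change 0.05 ± 0.16, SE; adjusted p = 0.906, edgeR). Per length, the ratio of Fth1 to Ftl1 was 1.91 and 1.19 in the fl/fl libraries against 2.58 and 2.04 in the wt/wt libraries, so both fl/fl libraries had the lower ratio. These ferritin levels are uncertain, since both genes have near-identical processed copies and the counting of shared reads is not given in the sources used here; Ftl1-ps1, the most counted copy, had 49 and 62 counts in fl/fl against 81 and 89 counts in wt/wt. Over 26.5% of its exonic length Ftl1 also overlaps a gene of the opposite strand.

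The iron exporter gene was higher in both fl/fl libraries, without passing the test. Slc40a1 (ENSMUSG00000025993; chromosome 1, 45908068 to 45926523, minus strand) encodes ferroportin, the only known iron exporter of mammalian cells. It held 72.3 and 54.9 CPM in fl/fl against 8.27 and 34.1 CPM in wt/wt. Both fl/fl libraries were above both wt/wt libraries, but the wt/wt libraries differed from each other by 2.03 on the log2 scale, against a median absolute difference of 0.25 over all tested genes. Slc40a1 averaged 63.6 ± 12.3 CPM in fl/fl and 21.2 ± 18.3 CPM in wt/wt (SD, n = 2 each), a log2 fold change of 1.58 ± 0.57 (SE; adjusted p = 0.164, edgeR). Its value was 0.85 when wt/wt 1 was left out and 2.95 when wt/wt 2 was, and with the replicate number as a block it was 1.87 and passed (adjusted p = 0.0420, edgeR). Per length, the ratio of Tfrc to Slc40a1 was 0.391 and 0.316 in the fl/fl libraries against 3.94 and 0.875 in the wt/wt libraries; with the longest transcript as length it was 0.216 and 0.175 in fl/fl libraries against 2.17 and 0.483 in wt/wt libraries.

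Among the heme genes, Hmox1 fell. Hmox1 (ENSMUSG00000005413; chromosome 8, 75093621 to 75100589, plus strand), the inducible heme oxygenase and a known target of IL-10 in macrophages, held 156 and 157 CPM in fl/fl against 267 and 297 CPM in wt/wt. The fl/fl libraries were nearly equal and both lay below the wt/wt libraries. Hmox1 averaged 157 ± 0.864 CPM in fl/fl and 282 ± 21.05 CPM in wt/wt (SD, n = 2 each), a log2 fold change of −0.85 ± 0.16 (SE; adjusted p = 0.0306, edgeR). The log2 fold change lay between −0.97 and −0.77 when single libraries were left out, while the adjusted p became 0.182 when wt/wt 1 was dropped and 0.159 when wt/wt 2 was (edgeR). Hmox1 and Slc40a1 are also markers of iron-recycling macrophages. Of the 6 other genes on that list, Axl fell (46.6 and 67.1 CPM in fl/fl against 419 and 351 CPM in wt/wt) and 5 did not pass, while Spic and Cd163, which define these cells, were at or below 5.08 CPM in every library. Without the members, the list summed to 88.0 and 137 CPM in fl/fl against 471 and 411 CPM in wt/wt, a difference carried by Axl. Of the 5 others, Vcam1 was above in both fl/fl libraries, Nr1h3 was below and the rest overlapped. The part of this list in the Hmox1 difference was not tested. Blvrb (ENSMUSG00000040466; chromosome 7, 27447978 to 27466144, plus strand), a biliverdin and flavin reductase, held 28.5 and 35.7 CPM in fl/fl against 48.3 and 38.3 CPM in wt/wt. Its lowest wt/wt library was close to its highest fl/fl library, and it did not pass (log2 fold change −0.43 ± 0.21, SE; adjusted p = 0.282, edgeR). Slc48a1 (ENSMUSG00000081534; chromosome 15, 97778520 to 97792692, plus strand), which brings heme from the phagolysosome to the cytosol and is also called HRG1, held 58.4 and 57.5 CPM in fl/fl against 43.7 and 61.5 CPM in wt/wt. The fl/fl libraries of Slc48a1 lay inside the wt/wt range (log2 fold change 0.14 ± 0.21, SE; adjusted p = 0.761, edgeR).

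By mean RPKM the order of the 10 genes in fl/fl was Fth1 (864), Ftl1 (565), Hmox1 (89.5), Slc11a1 (52.8), Steap4 (23.2), Slc48a1 (21.1), Blvrb (11.6), Slc40a1 (7.07), Steap3 (3.13) and Tfrc (2.54). In wt/wt the order was Fth1 (1261), Ftl1 (546), Hmox1 (161), Slc11a1 (103), Slc48a1 (19.1), Blvrb (15.6), Tfrc (3.47), Steap3 (2.85), Slc40a1 (2.35) and Steap4 (1.22). The first 4 places were thus the same in both genotypes. In fl/fl, the library ranges of Steap4 and Slc48a1 were separated narrowly (22.0 and 24.3 against 21.2 and 20.9 RPKM), and those of Steap3 and Tfrc overlapped. Lengths are those of merged exons; with the longest transcript the mean over the 4 libraries was 10.8 instead of 4.71 RPKM for Slc40a1, and 25.1 instead of 13.6 RPKM for Blvrb. The order in fl/fl was then the same, while in wt/wt Slc40a1 moved to rank 7, above Tfrc and Steap3, and Blvrb to rank 5, above Slc48a1.

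Beside the members, 8 lists held 91 other iron and heme genes, none of them a member. Of the 74 that were tested, 3 rose, 3 fell and 68 did not pass, where 2.69% of all tested genes were higher and 3.16% lower. Their median log2 fold change was 0.03, beside 0.02 over all tested genes. Of 13 genes of iron uptake and endosomal iron, Lcn2 rose and Slc39a14 fell. Lcn2, the lipocalin that binds bacterial siderophores and is stored in neutrophil granules, held 2876 and 816 CPM in fl/fl against 119 and 151 CPM in wt/wt (log2 fold change 3.77, adjusted p = 0.0197, edgeR). Lcn2 is also on the list of 18 neutrophil markers and is part of their calls and sums. Slc39a14, the importer ZIP14 for iron not bound to transferrin, held 10.3 and 3.37 CPM in fl/fl against 37.9 and 30.4 CPM in wt/wt (−2.32, adjusted p = 0.0410, edgeR). Trf, the gene of transferrin, overlapped between the genotypes at 200 and 324 CPM in fl/fl against 215 and 350 CPM in wt/wt, and was higher in library 2 of each; it is one of several genes here named outside the rule, with its values known. Of 11 tested genes of heme and hemoglobin uptake and transport, Hp rose, the gene of haptoglobin, which binds free hemoglobin: 2478 and 1860 CPM in fl/fl against 426 and 601 CPM in wt/wt (2.08, adjusted p = 0.0132, edgeR). Hp is also on the classical monocyte list, of which 4 of 13 rose and 1 fell, with sums of 20280 and 13130 CPM in fl/fl against 13220 and 10870 CPM in wt/wt. Without Hp and Chil3, which did not pass and held 8404 and 2069 CPM in fl/fl against 1370 and 714 CPM in wt/wt, the sums were 9393 and 9199 CPM in fl/fl against 11420 and 9559 CPM in wt/wt. These sums still hold Fn1, the gene that fell, at 1777 and 1266 CPM in fl/fl against 4707.5 and 3806 CPM in wt/wt. Of the 13 listed genes, 11 had a positive log2 fold change and 2 a negative one. The part of neutrophil and monocyte content in the values of Lcn2 and Hp was not tested. Abcc5, Lrp1, a receptor for hemopexin-bound heme, and Tspo were at log2 fold changes of 0.94, −0.53 and 0.62 without passing (adjusted p = 0.0541, 0.146 and 0.159, edgeR).

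Regulators of iron and heme genes held the remaining calls, with 1 of 16 higher and 2 lower. Fbxl5, the iron-sensing subunit of a ubiquitin ligase that marks iron regulatory protein 2 for degradation, rose to 525 and 294 CPM in fl/fl, against 155 and 160 CPM in wt/wt (log2 fold change 1.38, adjusted p = 0.0384, edgeR). With fl/fl 1 left out, Fbxl5 was at 0.86. As for the members, none of the 6 calls in these lists was kept by edgeR without wt/wt 1 or without wt/wt 2, where it called no gene of the table. DESeq2 kept 5 of the 6 in each case and lost Lcn2. The partners of Fbxl5 in its circuit did not pass. Ireb2, the gene of iron regulatory protein 2, was at 57.0 and 55.1 CPM in fl/fl against 60.1 and 61.2 CPM in wt/wt. Aco1, the gene of iron regulatory protein 1, was at 32.0 and 39.7 CPM in fl/fl against 34.4 and 39.1 CPM in wt/wt. Bach2, a relative of the heme-sensing repressor BACH1, held 3.49 and 2.80 CPM in fl/fl against 26.6 and 24.5 CPM in wt/wt (−3.02, adjusted p = 0.00879, edgeR). Bach1 itself, which represses Hmox1 when heme is scarce, held 159 and 196 CPM in fl/fl against 295 and 223 CPM in wt/wt, below but not passing (−0.55, adjusted p = 0.174, edgeR). Hif1a, a transcription factor of the hypoxia response, fell to 158 and 129 CPM in fl/fl, against 345 and 296 CPM in wt/wt (−1.16, adjusted p = 0.0215, edgeR). Maff, a small MAF partner of the BACH factors, was at −1.42 without passing (adjusted p = 0.0515, edgeR), but passed in 8 of 15 other settings. Nfe2l2, the gene of the oxidant-responsive activator NRF2, overlapped at 191 and 248 CPM in fl/fl against 255 and 244 CPM in wt/wt. Ireb2, Aco1 and Nfe2l2 were named with their values known.

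**Figure D3:**
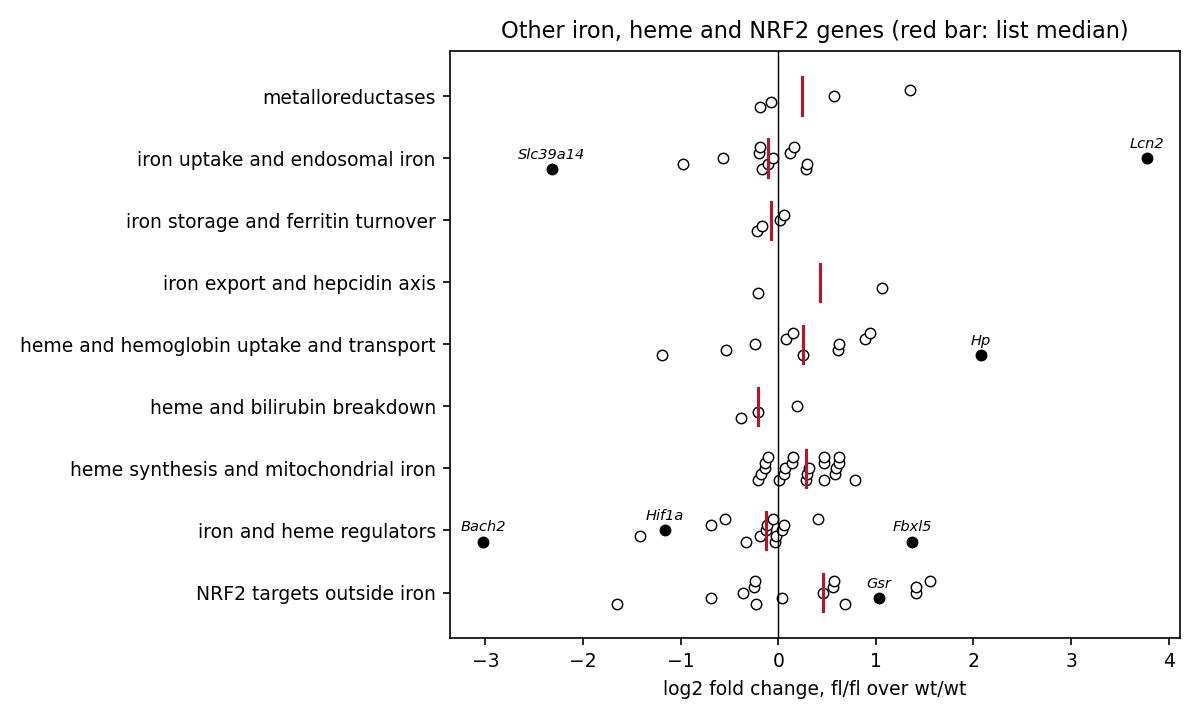
Log2 fold change of fl/fl over wt/wt for every tested gene of the 8 wider iron and heme lists and of a list of other NRF2 targets, 1 circle per gene, filled and named where the adjusted p is under 0.05 (edgeR); red bars are list medians. The called genes run from Bach2 at −3.02 to Lcn2 at 3.77, and the list medians lie between −0.21 and 0.46.

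No gene passed in the lists of other metalloreductases (4 tested), iron storage and ferritin turnover (4), iron export and the hepcidin axis (2), heme and bilirubin breakdown (3) or heme synthesis and mitochondrial iron (21). Among the metalloreductases, Cyb561a3, which reduces iron in lysosomes, held 34.8 and 32.5 CPM in fl/fl against 23.4 and 22.0 CPM in wt/wt (log2 fold change 0.57, adjusted p = 0.118, edgeR), while Cyb561 and Frrs1 were at 1.35 and −0.19. Of the storage genes, Pcbp2, an iron chaperone that loads ferritin, was at −0.22, Herc2 at −0.17 and Ncoa4, the receptor that delivers ferritin to the lysosome, at 0.06. In the breakdown list Hmox2, the constitutive heme oxygenase, was at −0.38, Por, the reductase that supplies its electrons, at −0.21, and Blvra, the main biliverdin reductase, at 0.19. Hamp, the gene of the iron hormone hepcidin and named with its values known, had 2 and 8 counts in fl/fl against 18 and 10 counts in wt/wt and was not tested, and Atrn and Cp of the export list were at 1.06 and −0.21 (adjusted p = 0.0579 and 0.874, edgeR).

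In heme synthesis and mitochondrial iron, 16 of 21 tested genes had a positive log2 fold change, where 7001 of all 13496 were positive, and the list median was 0.29. Both fl/fl libraries were above both wt/wt libraries for 10 genes and below for 3, where the shares over all tested genes were 28.1% above and 26.3% below. The smallest p-values of this list belonged to Slc25a38, the mitochondrial carrier that brings in glycine for heme (0.79, adjusted p = 0.0671, edgeR), and Glrx5, which passes on iron-sulfur clusters (0.62, adjusted p = 0.106, edgeR). Slc25a38 held 69.6 and 94.5 CPM in fl/fl against 47.0 and 48.0 CPM in wt/wt. Alas2, the erythroid form of the first enzyme and named with its values known, was near 0, at 5 and 14 counts in fl/fl and 2 and 4 counts in wt/wt.

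Other targets of NRF2, the activator that also drives Hmox1 and the ferritin genes, were tested beside it. Of 15 genes, 1 rose, none fell and 14 did not pass, where 5.85% of all tested genes were called. The log2 fold change was positive for 9 genes and negative for 6. Its median was 0.46, beside 0.02 over all tested genes. Both fl/fl libraries were above both wt/wt libraries for 6 genes and below for 6, against 28.1% and 26.3% of all tested genes. The genes named next, chosen by p-value, all had positive values. Gsr, the gene of glutathione reductase, held 1296 and 1151 CPM in fl/fl against 482 and 716 CPM in wt/wt (1.03, adjusted p = 0.0499, edgeR), and this call was lost in 5 of 15 other settings. G6pdx, the gene of glucose-6-phosphate dehydrogenase, was at 1.55 without passing (adjusted p = 0.0541, edgeR), but passed in 10 of 15 other settings, and ranged from 0.82 without fl/fl 1 to 2.03 without fl/fl 2. Taldo1, the gene of transaldolase, was at 0.69 (adjusted p = 0.0773, edgeR). Gclm, a subunit of the glutathione-making ligase, held 52.2 and 18.6 CPM in fl/fl against 14.6 and 11.97 CPM in wt/wt (1.41, adjusted p = 0.124, edgeR), with fl/fl 1 the highest library.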

How the data were processed

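The submitters' processing notes name the GRCm38 build and the tools STAR 2.5.0, Trimmomatic 0.33 and FastQC 0.11.5. The authors deposited unnormalized counts of Ensembl genes, in 1 table for the 4 libraries. How reads were assigned to genes, with or without strand, is not given in the sources used here. GENCODE M21 (GRCm38) gave symbols for 55227 of 55487 identifiers, positions and merged exon lengths. In R 4.3.3, edgeR 4.0.16 was run on the counts after filterByExpr at a minimum count of 10 (13496 of 22696 genes with any count). It used TMM scaling, the two-sided quasi-likelihood F test without covariates, a prior count of 0.125 and Benjamini-Hochberg adjustment over all tested genes. Genes were called at an adjusted p under 0.05. Each log2 fold change sets fl/fl over wt/wt, and its SE is its size divided by the square root of the F statistic. The steps were tested on simulated data. RPKM is CPM over exonic length. Promoters came from RefSeq (GRCm38.p6) and matched Steap3, Steap4, Slc11a1, Ftl1, Fth1, Tfrc and Blvrb. Members, lists and tests were chosen with earlier results of these data known. Named were all members, every passing gene of the wider lists with up to 3 further genes by p-value, and Il10ra; genes outside this rule are said to be named with their values known, except marker and ferritin copy genes. Some results that the rule covers are not reported here. Alternatives, with DESeq2 1.42.0 and limma 3.58.1 among them, are in the closing section. Totals of 17154042 to 26441014 counts put 3 counts at 0.111 to 0.175 CPM; such floors cover counting error only.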

Additional observations from a re-analysis of the deposited data

How the results depend on the processing

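The calls for Hmox1 and Slc11a1 held under RLE, library-size and upper-quartile scaling, both other filters, a prior count of 5, DESeq2, limma-voom and the replicate block, and were lost without wt/wt 1 or wt/wt 2 in edgeR. Against 363 genes higher and 427 lower over the table, no filter gave 1017 and 1071, DESeq2 784 and 834, and the replicate block 602 higher. In the wider iron lists (3 and 3), no filter gave 9 and 6, DESeq2 6 and 5, and the replicate block 6 higher. Slc40a1 became the 1 higher member with no filter (adjusted p = 2.81e-10, edgeR, where Fth1 was also lower) and with the replicate block (adjusted p = 0.0420, edgeR); the numbers are not known to pair the libraries, whose deviations correlated at 0.02. Leaving out single libraries gave 0 to 811 genes higher and 0 to 666 lower, 0 to 3 members lower, and in the wider lists 0 to 6 higher and 0 to 5 lower. Values that changed sign in those fits had not passed: Steap3 (−0.31 to 0.51), Slc48a1 (−0.13 to 0.41), Ftl1 (−0.026 to 0.086), Ncoa4 (−0.33 to 0.35), Cp (−0.63 to 0.19) and Blvra (−0.052 to 0.36). Added after seeing the data, DESeq2 without wt/wt 1 called 222 genes lower and no member but kept 5 of the 6 wider calls, as it did without wt/wt 2, with sign changes for Steap3 (−0.17), Slc48a1 (−0.10) and Cp (0.22). Without wt/wt 2 it called Slc40a1 as 1 member higher and Slc11a1 as 1 lower, and Ncoa4 was at −0.22. The causes were not tested. Using the longest transcript as gene length moves the RPKM levels of members but no genotype comparison.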

Other observations

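The tested genes whose pattern over the 4 libraries was nearest to that of Steap4, by Euclidean distance of mean-centred log2 CPM, were Panct2, Dock9, Adgrb1, Kcnk12 and Slc22a20, at distances of 0.78 to 0.97. All were at low levels, between 1.43 and 3.55 CPM in fl/fl and between 0 and 0.332 CPM in wt/wt, so that their patterns rest on few counts.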
